A study of Mus musculus with 21 samples.

Results

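The variable (V) and joining (J) gene segments of the mouse T cell receptor beta locus were described across T cells of the injured heart and of lymphoid organs. The segments are the rows of the count table whose symbol starts with Trbv or Trbj, 49 of 49510 rows (35 Trbv and 14 Trbj). Each segment was expressed as a share of all Trbv or all Trbj reads of its library, so the shares describe which segments were used and not how much receptor RNA there was. RNA was sequenced from 21 libraries, 7 groups of 3. Regulatory T cells (Tregs) came from the heart, from the mediastinal lymph node (MLN) that drains it, from a non-draining lymph node (NDLN) and from the spleen, and conventional T cells (Tconvs) from the heart, the NDLN and the spleen. All groups shared the Foxp3-GFP reporter genotype, an age of 8 weeks and the time of 7 days after myocardial infarction (MI), the death of heart muscle that follows loss of its blood supply. No uninjured heart was among the groups, and MLN Tconvs were not analysed here. Per the labels, cells were enriched with magnetic beads and then sorted by flow cytometry, and libraries were made with a kit for very small RNA amounts.

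A T cell builds its beta chain gene by joining a V, a diversity (D) and a J segment, and the joined exon is then spliced to the constant region gene Trbc1 or Trbc2. The choice of segments is made separately in each developing thymocyte and is passed on to all of its daughters. A clone that has expanded therefore raises the share of its own V and J segment in bulk RNA, while a population of many small clones spreads reads over many segments. Segment shares do not count clones: cells with the same V segment usually carry different junctions, and the junctions were not read here.

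The annotated 3′ ends of V segments whose shares are described below are given here because they mark where each V segment meets the junction. Capitals mark TGTGCNAG (N is any base), which contains the codon of the conserved cysteine at which the junction begins. The sequences are the last 45 bases of the GENCODE M21 transcripts on chromosome 6 of GRCm38 (the assembly behind mm10), written 5′ to 3′ on the plus strand, except that of Trbv31, which lies on the minus strand.
Trbv3: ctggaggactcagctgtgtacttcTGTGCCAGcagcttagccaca
Trbv13-2: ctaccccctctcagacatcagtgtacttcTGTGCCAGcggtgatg
Trbv13-3: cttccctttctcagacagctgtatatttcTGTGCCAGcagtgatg
Trbv12-1: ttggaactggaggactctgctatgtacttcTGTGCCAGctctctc
Trbv12-2: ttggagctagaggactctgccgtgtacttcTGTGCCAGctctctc
Trbv16: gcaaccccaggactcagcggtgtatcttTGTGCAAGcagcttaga
Trbv17: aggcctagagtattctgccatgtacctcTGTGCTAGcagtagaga
Trbv19: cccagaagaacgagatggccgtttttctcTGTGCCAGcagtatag
Trbv1: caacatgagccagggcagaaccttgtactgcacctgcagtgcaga
Trbv20: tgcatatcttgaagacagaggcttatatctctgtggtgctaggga
Trbv31: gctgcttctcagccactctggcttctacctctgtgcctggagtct
Examples are Trbv1 at chr6:40891841-40891885, Trbv3 at chr6:41048784-41048828, Trbv13-2 at chr6:41121788-41121832, Trbv16 at chr6:41152186-41152230, Trbv19 at chr6:41179004-41179048, Trbv20 at chr6:41188933-41188977 and Trbv31 at chr6:41557693-41557737, each the closing stretch of a coding exon. Trbv1, Trbv20 and Trbv31 close with other letters. On the transcript strand the motif was found in 21 of the 26 Trbv segments that had reads and on the reverse strand in 0. It was in 0% of 9428 other windows of 45 bases taken from Trbv transcripts. Trbv12-1 and Trbv12-2 were 88.3% identical over 385 aligned bases and Trbv13-2 and Trbv13-3 90.6% over 340, against a median of 58.1% between segments of different subfamilies. How reads that match several segments were counted is not given in the sources used here, so values of members of the Trbv12 and Trbv13 subfamilies are uncertain among themselves.

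The J segments are short, 46 to 53 bases, and are printed because those that took many reads differ in whether they can encode the J motif Phe-Gly-X-Gly. Capitals mark its coding pattern, TTN followed by GGN, NNN and GG, and all of these segments lie on the plus strand of chromosome 6.
Trbj1-3: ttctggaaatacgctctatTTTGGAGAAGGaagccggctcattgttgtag
Trbj1-5: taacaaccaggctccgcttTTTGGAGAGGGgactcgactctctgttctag
Trbj1-6: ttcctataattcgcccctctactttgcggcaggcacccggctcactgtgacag
Trbj1-7: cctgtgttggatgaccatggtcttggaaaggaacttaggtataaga
Trbj2-1: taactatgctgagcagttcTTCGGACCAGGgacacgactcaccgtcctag
Trbj2-3: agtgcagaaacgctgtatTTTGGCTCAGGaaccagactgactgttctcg
Trbj2-6: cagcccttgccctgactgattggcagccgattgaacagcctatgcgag
Trbj2-7: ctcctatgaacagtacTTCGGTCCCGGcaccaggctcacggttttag
Trbj2-1 lies at chr6:41542754-41542803, Trbj2-6 at chr6:41543598-41543645 and Trbj2-7 at chr6:41543810-41543856. The pattern was present in 11 of the 14 Trbj segments on the transcript strand and in 0 on the reverse strand, and in 2.21% of windows of 48 bases from Trbv transcripts. Trbj1-6, Trbj1-7 and Trbj2-6 did not hold it. Of these, Trbj2-6 is annotated as a pseudogene.

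Libraries held 14515387 to 28323649 counts and 9469 to 16239 genes with at least 1 count. Whether the 3 libraries of a group stem from different mice is not stated, nor is the number of sorted cells, so each p-value measures the spread between libraries, which may be technical. Foxp3, the transcription factor that defines Tregs, was at 37.3 to 299 CPM (counts scaled to library size) in the 12 Treg libraries and at 0 to 0.199 CPM in the 9 Tconv libraries, and Cd3d, Cd3e and Cd4 were present in all 21. In 5 libraries (MLN Treg replicates 1 and 2, the first heart Treg library, heart Tconv replicates 1 and 2) mitochondrial ribosomal RNA was below 0.5% of counts, and in the other 16 it was 0.954 to 12.3%. 

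Trbv segments together took 8552 to 35739 reads per library and Trbj segments 164 to 1894, so a Trbv share rests on far more reads than a Trbj share. All 22 Trbv segments annotated as genes had reads. Of the 13 Trbv pseudogenes, 4 had reads (Trbv12-3, Trbv22, Trbv24 and Trbv25), 0.453% of all Trbv reads. Of the 35 Trbv segments, 26 had at least 1 read in some library, 13 in all 21 libraries and 11 had at least 5 reads in every library. The summed Trbv level was 658, 612 and 669 CPM in heart Tregs, against 513 to 1258 CPM (median 871) in lymphoid Tregs. It was 707, 595 and 851 CPM in heart Tconvs, against 589 to 1408 CPM (median 901) in lymphoid Tconvs. Both heart groups overlapped with their lymphoid counterparts. In such bulk samples, fewer T cells and less receptor RNA per cell cannot be told apart. For every 100 reads of the constant genes Trbc1 and Trbc2 there were 27.1, 28.9 and 27.4 Trbv reads in heart Tregs and 18.7 to 28.7 in lymphoid Tregs, and 26.6, 26.6 and 27.3 in heart Tconvs and 16.9 to 28.0 in lymphoid Tconvs.

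Each heart Treg library was led by a different V segment, whereas Trbv3 led 8 of the 9 lymphoid Treg libraries. In heart Treg replicate 1 the largest share of Trbv reads was that of Trbv3 with 14.5% (exact binomial 95% interval 13.9 to 15.1%). Replicate 2 was led by Trbv19 with 20.4% (19.8 to 21.03%) and replicate 3 by Trbv16 with 15.05% (14.5 to 15.6%). These intervals cover counting error only, since reads copied by PCR without molecular identifiers are not independent molecules. Trbv3 led all 3 MLN Treg libraries with 14.005, 13.3 and 19.96% and all 3 NDLN Treg libraries with 12.7, 23.8 and 13.8%. In spleen Tregs it led replicates 1 and 3 with 15.6 and 13.6%, and Trbv13-2 led replicate 2 with 20.2%. Trbv transcripts are 260 to 566 bases long, so shares were also computed per length. When reads were divided by transcript length, heart Treg replicate 1 was led by Trbv13-3 (16.8% of length-scaled reads) and replicates 2 and 3 by Trbv13-2 (17.6 and 16.3%), while Trbv3 still led 6 of the 9 lymphoid Treg libraries and Trbv13-2 the other 3. That each heart Treg library has its own leading segment thus held for reads and not per length. Some leads by reads were narrow. Trbv13-3 came second in heart Treg replicate 1 with 14.3%, inside the interval of the leader, and Trbv13-2 in replicate 3 with 14.3%. In NDLN Treg replicate 1, Trbv3 had 3555 reads and Trbv12-1 3549. Different leaders in each library were also found in heart Tconvs and in NDLN Tconvs, so this trait was not particular to heart Tregs.

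**Figure D1:**
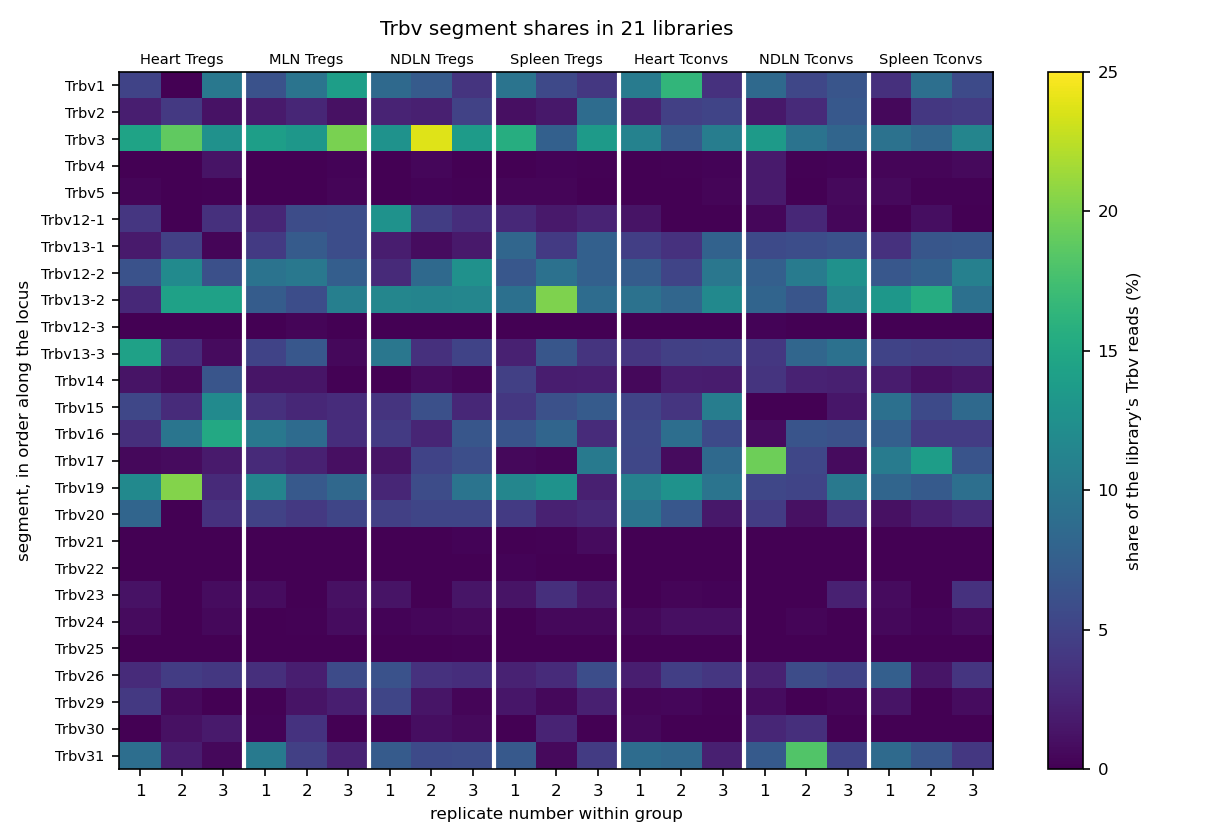
Share of each library's Trbv reads (colour, 0 to 25%) for the 26 Trbv segments with reads, in their order along the locus (rows), in 21 libraries (columns, grouped by organ and cell type). Trbv3 forms a bright row in Treg libraries, with its highest share of 23.8% in NDLN Treg replicate 2, and heart Treg replicate 2 is dark at Trbv1 and Trbv20.

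Evenness of Trbv use was lower in heart Tregs than in lymphoid Tregs before adjustment for the number of tests, and the difference rested mainly on heart Treg replicate 2. Shannon evenness is the entropy of the shares divided by its highest possible value over the 26 segments with reads, so 1 means equal use and 0 a single segment. It was 0.812, 0.693 and 0.781 in heart Tregs, against 0.783 to 0.848 (median 0.813) in lymphoid Tregs. Replicates 2 and 3 were the lowest of all 21 libraries, while replicate 1 lay within the lymphoid range, so the groups overlapped. The means were 0.762 ± 0.0618 (SD, n = 3) and 0.815 ± 0.0211 (n = 9), a difference of -0.0529 (two-sided exact permutation test over 220 arrangements, p = 0.0318). Adjusted by the Benjamini-Hochberg method over the 16 permutation tests made here, p was 0.509. Among the 16 libraries with more mitochondrial ribosomal RNA it was -0.0743 (2 against 7 libraries, exact permutation p = 0.0278), and among the other 5 it was -0.0153, where 1 heart and 2 lymphoid Treg libraries are too few for any outcome to pass the threshold. Without heart Treg replicate 2 the difference was -0.0183 (exact permutation p = 0.291), and without replicate 3 it was -0.0626 (exact permutation p = 0.0909). Expressed as the number of equally used segments with the same entropy, the values were 14.1, 9.56 and 12.8 in heart Tregs and 12.8 to 15.8 in lymphoid Tregs. The 3 largest segments together took 40.7, 53.7 and 42.1% of Trbv reads in heart Tregs, against 32.7 to 44.8% in lymphoid Tregs.

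Markers of other cells were measured in the same libraries. Of the B cell genes, Ms4a1 was at 0 in all heart Treg and all MLN Treg libraries and at 38.6 to 55.97 CPM in NDLN and spleen Tregs. Cd79b, a subunit of the B cell receptor, was at 0.0373 to 23.4 CPM in heart Tregs and 31.5 to 150.5 CPM in lymphoid Tregs, with no overlap. Its partner Cd79a was at 0.0353 to 9.82 CPM in heart Tregs and 0.295 to 272 CPM in lymphoid Tregs, the MLN libraries being the low ones. In Tconvs these 3 genes reached at most 20.6 CPM in the heart and 9.93 CPM in lymphoid organs. The CD8 markers Cd8a and Cd8b1 summed to 0 to 33.2 CPM in heart Tregs, with Cd8a at 0 in all 3, and to 13.7 to 60.5 CPM in lymphoid Tregs, 4 of which also had Cd8a at 0. The 5 gamma delta T cell markers found in the table, of 8 listed names, summed to 0 to 5.63 CPM and 3.10 to 120 CPM. The 3 fibroblast markers (Col1a1, Col1a2, Pdgfra) summed to 26.0 to 74.1 CPM in heart Tregs and 0 to 5.13 CPM in lymphoid Tregs, with Pdgfra at 0 in heart Tregs. NK cell markers (3 genes) summed to 0.0373 to 41.7 CPM in heart Tregs and 0 to 17.1 CPM in lymphoid Tregs, and macrophage markers to 0 to 0.0746 CPM and 0 to 63.5 CPM. In heart Tconvs NK cell markers summed to 53.2 to 478 CPM, against 0.344 to 287 CPM in lymphoid Tconvs. Of these markers, Klrk1 was at 468, 53.2 and 213 CPM in heart Tconvs, against 0 to 184 CPM in lymphoid Tconvs. Klrb1c was at 9.91, 0 and 15.2 CPM in heart Tconvs, against 0.344 to 103 CPM, and Ncr1 was at 0 in all Tconv libraries. Gamma delta markers summed to 47.9 to 81.7 CPM in heart Tconvs, against 15.04 to 276 CPM in lymphoid Tconvs. CD8 markers were at 5.86 to 33.8 CPM in heart Tconvs and 0 to 45.8 CPM in lymphoid Tconvs, macrophage markers at 0.402 to 81.2 and 0 to 18.05 CPM, and fibroblast markers at 0 to 32.6 and 0 to 3.15 CPM. The fibroblast sums did not overlap between heart and lymphoid Tregs, while those of CD8, gamma delta, NK and macrophage markers did. Gene by gene, 288 of 14996 genes tested were higher and 301 lower in CPM in every heart than in every lymphoid Treg library. The part of such cells in the segment shares was not tested.

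The share of the largest segment did not separate heart from lymphoid Tregs. It averaged 16.6 ± 3.26% in heart Tregs (SD, n = 3) and 16.3 ± 3.97% in lymphoid Tregs (n = 9), a difference of 0.328 percentage points (exact permutation p = 0.859, adjusted 0.894). Evenness and the largest share therefore read differently here: heart Treg replicate 3, with the second lowest evenness, had a leading share in the middle of the 21 libraries. Per length, the largest share was 16.8, 17.6 and 16.3% in heart Tregs.

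In Tconvs, Trbv evenness of the heart lay inside the lymphoid range. The heart Tconv values of 0.815, 0.799 and 0.810 lay within the span of 0.795 to 0.841 (median 0.807) in lymphoid Tconvs. The difference in means was -0.00331 (0.808 ± 0.00807, n = 3, against 0.811 ± 0.0167, n = 6; exact permutation p = 0.786, adjusted 0.894), and its sign changed with several settings. The largest segment was Trbv3 (11.1%), Trbv1 (16.5%) and Trbv13-2 (11.9%) in heart Tconvs. In NDLN Tconvs it was Trbv17 (19.5%), Trbv31 (18.2%) and Trbv12-2 (12.6%), and in spleen Tconvs Trbv13-2 (13.2 and 15.5%) and Trbv3 (11.4%). The largest share averaged 13.1 ± 2.92% in heart Tconvs and 15.1 ± 3.24% in lymphoid Tconvs (difference -1.92 points, exact permutation p = 0.393, adjusted 0.894).

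Tregs and Tconvs did not differ past the threshold in either measure. In the heart, the Trbv evenness of Tregs minus that of Tconvs was -0.0458 (exact permutation p = 0.3, where 0.1 is the smallest p that 3 against 3 libraries allow) and the largest share was higher by 3.50 points (exact permutation p = 0.3). In spleen and NDLN, Tregs exceeded Tconvs by 0.00501 in evenness (0.816 ± 0.0192 and 0.811 ± 0.0167, n = 6 each; exact permutation p = 0.636) and by 1.54 points in the largest share (exact permutation p = 0.506). Whether the heart differed more from spleen and NDLN in Tregs than in Tconvs was examined in a comparison added after the data were seen. The evenness difference was -0.0541 in Tregs and -0.00331 in Tconvs, and the gap of -0.0508 had an exact permutation p of 0.103 over 7056 arrangements. Heart and lymphoid labels were permuted within each cell type. This p therefore assumes no heart difference in either cell type and does not test whether the differences are equal.

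**Figure D2:**
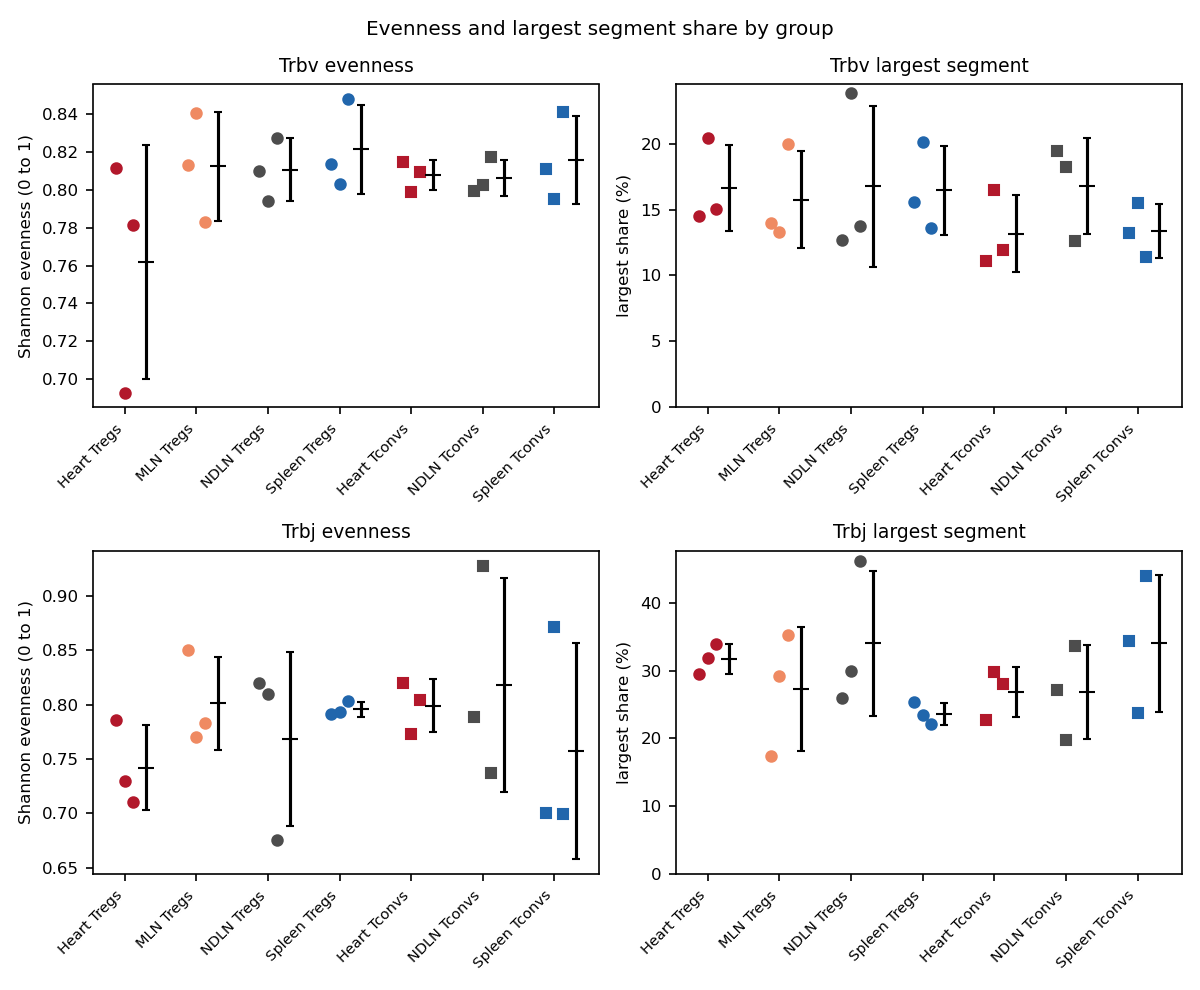
Shannon evenness (left, 0 to 1, axis not starting at 0) and share of the largest segment (right, % of the family's reads) for Trbv (top) and Trbj (bottom) in the 7 groups. Points are libraries (circles Tregs, squares Tconvs) and bars are the mean ± SD of 3. Heart Treg replicate 2 is the lowest point of the Trbv evenness panel at 0.693, and the largest-share panels overlap between heart and lymphoid groups.

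Trbv1 and Trbv20, found in all other libraries, were nearly or fully missing from heart Treg replicate 2. Trbv1 had 1 of 16410 Trbv reads there, against 3.45 to 16.5% in the other 20 libraries. Trbv20 had 0 reads, which allows a share of up to 0.0183% (3 reads of the total), against 1.10 to 9.67% in the other 20. With fewer than 5 reads each, Trbv1, Trbv4, Trbv5, Trbv12-1, Trbv20, Trbv21 and Trbv23 were below that limit in this library, 7 of the 22 Trbv genes. Most of these were not particular to it. Counting this library, Trbv21 was below the limit in 18 libraries, Trbv5 in 6, Trbv12-1 and Trbv23 in 5 each and Trbv4 in 4. In the other heart Treg libraries 3 and 2 genes were below it, in lymphoid Tregs 0 to 4, in heart Tconvs 2 to 3 and in lymphoid Tconvs 2 to 5. The number of Trbv reads in heart Treg replicate 2 was within the range of the other libraries, and so was its number of detected genes.

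Common segments were also missing from libraries outside heart Tregs. Trbv15 had 0 reads in NDLN Tconv replicates 1 and 2, which held 17943 and 30937 Trbv reads, but 1.54% in replicate 3 and 2.77 to 11.9% in all libraries of the other groups. Trbv12-1 had fewer than 5 reads in heart Tconv replicates 2 and 3, spleen Tconv replicates 1 and 3 and heart Treg replicate 2, and at least 0.412% in the other 16. Trbv21 had fewer than 5 reads in 18 libraries and Trbv30 in 11, Trbv30 reaching 3.64% in MLN Treg replicate 2.

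The heart Treg libraries differed from each other in V use more than the libraries of any other group did. The measure is the share of Trbv reads that would have to move to another segment to turn the profile of 1 library into that of another. It was 44.2, 45.3 and 41.6% for the 3 pairs of heart Treg libraries. The pairs ran from 17.4 to 28.4% in MLN Tregs, 20.7 to 29.7% in NDLN Tregs and 29.02 to 37.6% in spleen Tregs. In Tconvs they ran from 19.6 to 31.995% in the heart, 26.3 to 36.8% in the NDLN and 20.7 to 21.5% in the spleen. The lowest heart Treg pair was thus above the highest pair of each of the other 6 groups. This pattern was noticed after the values were seen, the 3 pairs share libraries, and it was not tested. Pairs of libraries from different groups averaged 30.3% (11.2 to 47.8%, 189 pairs), close to the 29.2% within groups (21 pairs). A heart Treg and an MLN Treg library differed by 31.6% on average (9 pairs), less than the heart Treg libraries did among themselves. No replicates looked like a library deposited again: chi-square over its degrees of freedom was 72.3 or more for Trbv and 7.49 or more for Trbj. This compares them with the counting error of reads only, not with the sampling of cells or molecules.

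**Figure D3:**
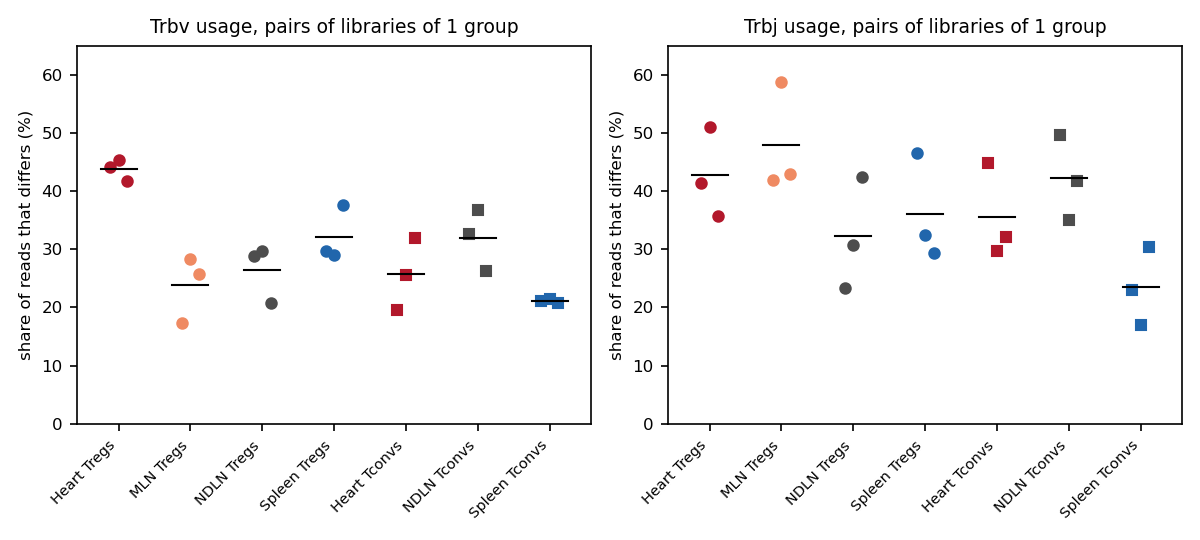
Share of Trbv (left) and Trbj (right) reads that differs between a pair of libraries of the same group (y axis, %), for the 3 pairs in each of the 7 groups. Points are pairs and lines their means. The heart Treg pairs lie at 41.6 to 45.3% for Trbv, above all other groups, while for Trbj they lie among them.

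Single V segments varied widely between replicates. Trbv3 had 14.5, 18.9 and 12.7% of Trbv reads, against 7.70 to 23.8% (median 13.8%) in lymphoid Tregs. In heart Tconvs it had 11.1, 6.97 and 10.6%, against 8.19 to 13.6% (median 9.45%) in lymphoid Tconvs. All 3 heart Treg libraries lay above all 3 heart Tconv libraries, while heart and lymphoid ranges overlapped in each cell type. Trbv3 was the 1 of 26 Trbv segments without overlap in share between heart Tregs and heart Tconvs. Of all genes tested, 12.1% did not overlap in CPM between these groups, and edgeR did not call the level of Trbv3.

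Trbv19, Trbv16, Trbv13-2 and Trbv13-3 each varied several-fold among heart Tregs. Trbv19 had 11.9, 20.4 and 2.99% in heart Tregs, against 2.18 to 12.8% in lymphoid Tregs (median 8.45%). Trbv16 had 3.34, 9.71 and 15.05% in heart Tregs, against 2.60 to 10.04% in lymphoid Tregs (median 6.48%). For each, a single heart Treg library exceeded the whole lymphoid Treg range, replicate 2 for Trbv19 and replicate 3 for Trbv16. Trbv13-2 had 2.85, 14.3 and 14.3% in heart Tregs, against 5.95 to 20.2% (median 10.8%) in lymphoid Tregs. Its near neighbour Trbv13-3 had 14.3, 3.21 and 0.771% in heart Tregs, against 0.576 to 9.94% (median 5.07%) in lymphoid Tregs. In heart Tregs the high library of Trbv13-3 was the low library of Trbv13-2.

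Among the remaining segments that averaged at least 5% in some group, Trbv17 was low in all heart Treg libraries. It had 0.573, 0.780 and 1.84%, against 0.373 to 10.3% in lymphoid Tregs (median 2.29%). In heart Tconvs Trbv17 had 5.31, 0.686 and 8.58%, against 0.713 to 19.5% (median 8.45%) in lymphoid Tconvs. All these ranges overlapped. Trbv12-1 had 3.98, 0 and 3.44% in heart Tregs and 1.73 to 12.7% in lymphoid Tregs, against 1.36, 0 and 0.0105% in heart Tconvs and 0 to 2.81% in lymphoid Tconvs. Trbv31 had 9.001, 1.94 and 0.565% in heart Tregs, against 0.638 to 10.2% in lymphoid Tregs. Trbv1, Trbv12-2, Trbv13-1, Trbv15 and Trbv20, the others with such an average, overlapped between heart and lymphoid Tregs too.

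**Figure D4:**
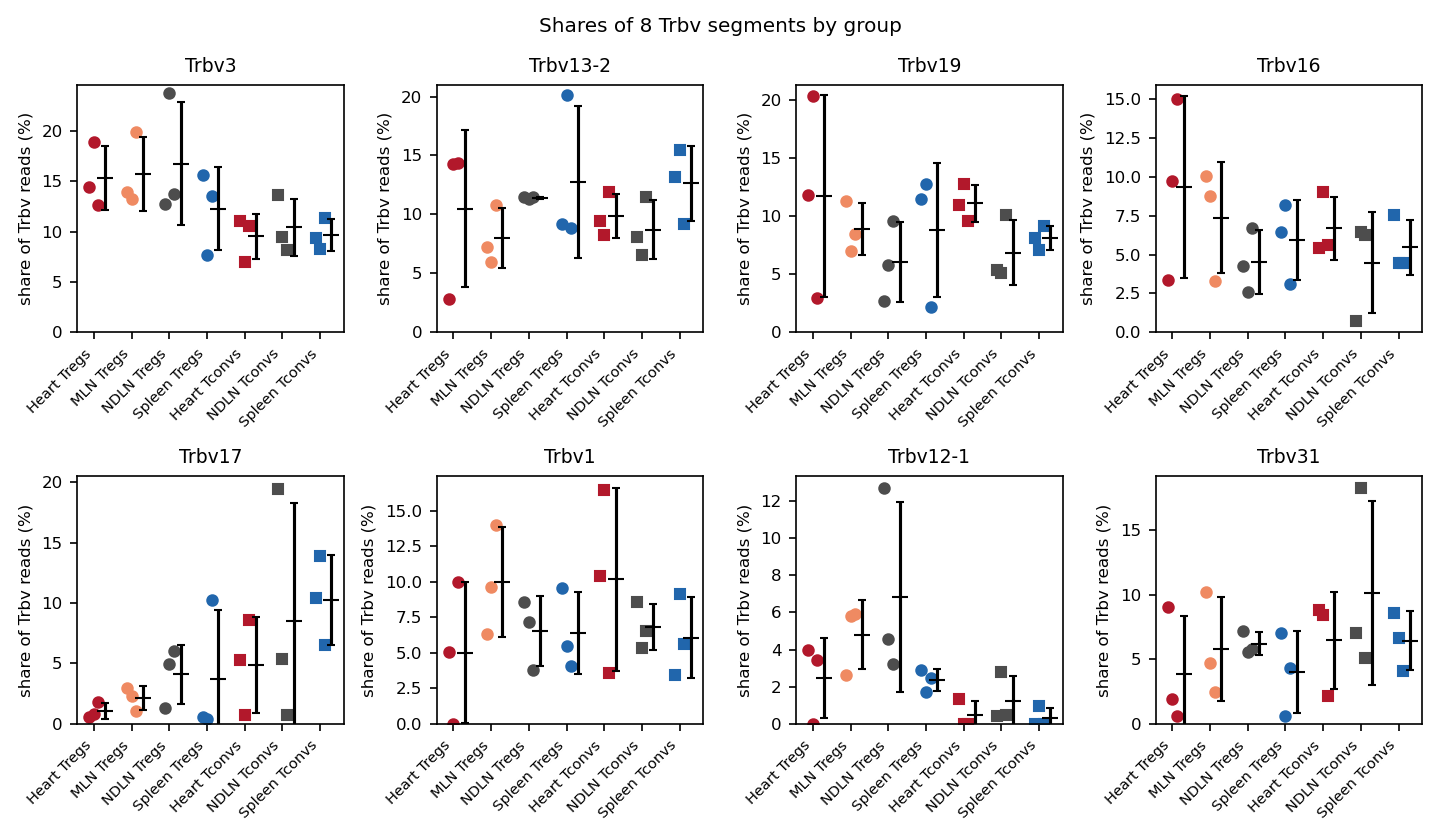
Share of Trbv reads (y axes, %, each panel with its own scale from 0) of 8 Trbv segments in the 7 groups. Points are libraries (circles Tregs, squares Tconvs) and bars the mean ± SD of 3, where the lower arm is cut at 0. Trbv19 and Trbv16 each have 1 heart Treg library above all others, at 20.4 and 15.05%, and Trbv17 stays at or below 1.84% in heart Tregs.

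No segment passed the test for a difference in level between groups. Levels were tested with edgeR's quasi-likelihood test on counts of all 14996 genes that passed the filter on low counts, with Benjamini-Hochberg adjustment. Of the 49 segments, 37 passed the filter (23 Trbv and 14 Trbj), all of them given a test in every contrast. The common dispersion of the fit, a measure of spread between libraries of a group, was 2.19. For Trbj segments in heart against lymphoid Tregs, the standard error (SE) of the log2 fold change ran from 1.01 (Trbj2-1) to 2.08 (Trbj1-4). Changes of several-fold could thus go uncalled, and a missing call does not show equal levels. In heart against lymphoid Tregs 0 of 37 were called, where 0.967% of all genes were. There 0 segments had an unadjusted p under 0.05, against 15.7% of all genes. Trbv fold changes were above 0 for 5 and below 0 for 18 of 23, with a median log2 fold change of -0.43, and the Trbj median was -0.46, against -0.01 for all genes tested. In heart against lymphoid Tconvs 0 of 37 were called, against 4.58% of all genes. In this contrast 1 segment had an unadjusted p under 0.05, against 22.9% of all genes. There the medians were -0.80 for Trbv (5 above and 18 below 0) and -1.65 for Trbj (2 above and 12 below 0). The median of all genes was 0.54, and 0.58 when edgeR was run with relative log expression (RLE) scaling instead. In heart Tregs against heart Tconvs 0 of 37 were called, against 0.0667% of all genes. An unadjusted p under 0.05 was found for 0 segments, against 7.81% of all genes. In spleen and NDLN Tregs against Tconvs 0 of 37 were called, against 1.1% of all genes. An unadjusted p under 0.05 was found for 2 segments, against 14.8% of all genes. The heart Treg libraries and the heart Tconv libraries each enter a pair of these contrasts, so the contrasts are not independent.

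Other tools called few segments. In heart against lymphoid Tconvs, where it called 18.4% of all genes, DESeq2 called Trbj1-1 lower (log2 fold change -3.35, adjusted p = 0.0355) and gave Trbv30 a positive fold change (adjusted p = 0.0385). Trbv30 had 61, 0 and 0 reads in heart Tconvs, against 480, 1031 and 0 in NDLN Tconvs and 0 in all spleen Tconvs, so the raw reads go the other way: the fit averages the log levels of NDLN and spleen, and the spleen group has no reads. In spleen and NDLN Tregs against Tconvs DESeq2 called Trbv30 too (adjusted p = 0.000237), with the same empty spleen Tconv group, where it called 13.7% of all genes. In the other contrasts DESeq2 called 0 segments, where it called 12 and 6.94% of all genes. Limma-voom, added after the data were seen, called 0 segments in each contrast, where it called 4.09, 9.46, 1.37 and 3.01% of all genes.

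The segments nearest to a call were the following, none of which passed by edgeR. In heart against lymphoid Tregs, Trbv14 (log2 fold change 1.29, SE 1.02, adjusted p = 0.631) and Trbv4 (1.47, SE 1.78, adjusted p = 0.836) had the smallest p among those with higher values. On the lower side stood Trbv13-1 (-1.19, SE 0.69, adjusted p = 0.415) and Trbv21, which had 0 reads in all heart Tregs and in 5 of 9 lymphoid Tregs. Trbv13-1 had 1.77, 4.77 and 0.380% of Trbv reads in heart Tregs and 0.866 to 8.28% (median 4.28%) in lymphoid Tregs, an overlap over most of the range. In heart against lymphoid Tconvs, Trbv12-2 (-0.97, SE 0.46, unadjusted p = 0.0494, adjusted 0.217) and Trbv3 (-0.80, SE 0.39, adjusted p = 0.225) were nearest on the lower side, and Trbv15 (1.35, SE 1.11, adjusted p = 0.521) and Trbv21 (4 reads in 1 heart Tconv library, 0 in the rest of the Tconvs) on the higher side.

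Between Tregs and Tconvs of the heart, Trbv3 (log2 fold change 0.68, SE 0.44, adjusted p = 0.692) and Trbv12-1 (2.61, SE 2.14, adjusted p = 0.870) were nearest on the higher side. Trbv17 (-2.28, SE 1.18, adjusted p = 0.601) and Trbv13-1 (-1.33, SE 0.80, adjusted p = 0.658) were nearest on the lower side. In spleen and NDLN Tregs against Tconvs, Trbv17 was lower (-2.02, SE 0.83, unadjusted p = 0.0240) without passing the adjustment (adjusted p = 0.246), and so was Trbv13-1 (-1.16, SE 0.56, adjusted p = 0.350). Trbv17 took 0.373 to 10.3% (median 3.14%) of Trbv reads in these Tregs and 0.713 to 19.5% (median 8.45%) in the Tconvs. Trbv21 (adjusted p = 0.183) had 0, 0 and 42 reads in NDLN Tregs and 0, 30 and 97 in spleen Tregs, against 0 in all 6 Tconv libraries, and Trbv30 (adjusted p = 0.502) was the other on the higher side. No fold is given for Trbv21 because a group without reads sets no scale.

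All J segments had reads, 16289 in all, and Trbj2-1 and Trbj2-7 led most libraries. Trbj2-1 led 13 of the 21 libraries and Trbj2-7 led 6, and the same held per length. All 3 heart Treg libraries were led by Trbj2-1, with 29.6, 31.8 and 34.0% of Trbj reads, while lymphoid Tregs had 10.99 to 46.3% (median 22.0%) of it and were led by it in 4 of 9 libraries. Heart Tconvs had 22.8, 14.6 and 28.1% of Trbj2-1, against 9.88 to 43.99% in lymphoid Tconvs (median 25.6%). Trbj2-7 had 2.20, 25.4 and 15.1% in heart Tregs, against 3.44 to 35.4% (median 20.3%) in lymphoid Tregs. The heart Treg libraries thus shared their leading J segment but not the next: Trbj1-5 came second in replicate 1 with 16.1%, Trbj2-7 in replicate 2 with 25.4% and Trbj2-3 in replicate 3 with 20.2%.

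**Figure D5:**
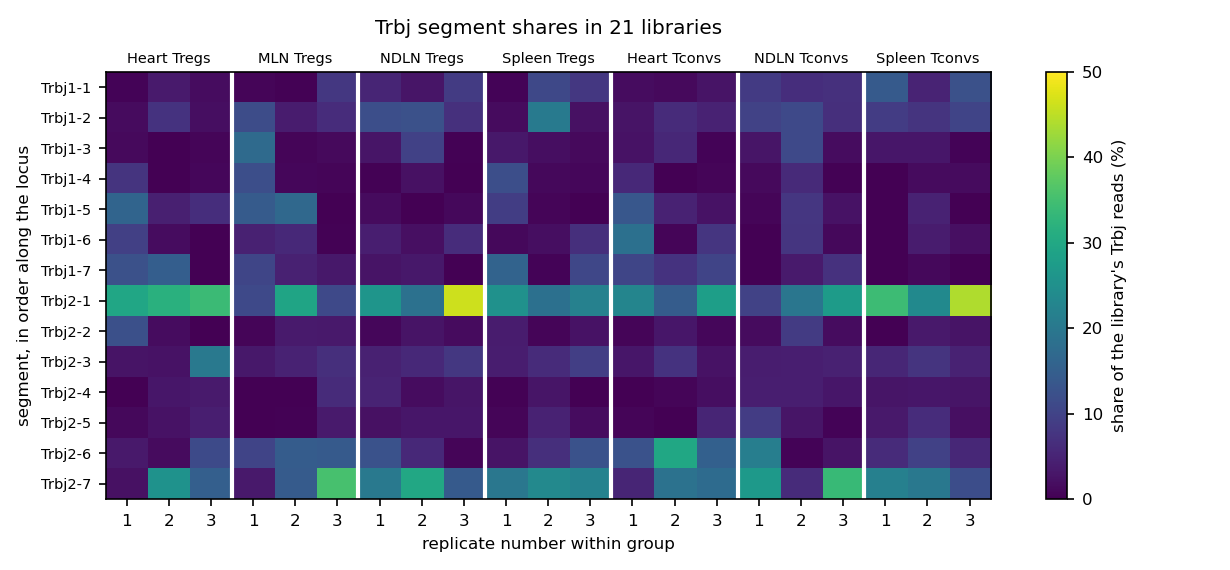
Share of each library's Trbj reads (colour, 0 to 50%) for the 14 Trbj segments in their order along the locus (rows), in 21 libraries (columns, grouped by organ and cell type). Trbj2-1 and Trbj2-7 form bright rows, with the highest share of 46.3% for Trbj2-1 in NDLN Treg replicate 3, and Trbj2-6 reaches 29.9% in heart Tconv replicate 2.

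Trbj evenness did not separate heart from lymphoid Tregs past the threshold. It was 0.786, 0.730 and 0.710 in heart Tregs, against 0.676 to 0.850 (median 0.793) in lymphoid Tregs. The means were 0.742 ± 0.0394 (SD, n = 3) and 0.789 ± 0.0482 (n = 9), a difference of -0.0465 (exact permutation p = 0.164, adjusted 0.8). The lymphoid range was set by NDLN Treg replicate 3 at 0.676. Without that library the lymphoid Tregs spanned 0.770 to 0.850, and the difference was -0.0606 (exact permutation p = 0.0182, not adjusted). In heart Tconvs Trbj evenness was 0.820, 0.773 and 0.804, against 0.700 to 0.928 in lymphoid Tconvs (difference 0.0115, exact permutation p = 0.857). The highest value of all libraries, 0.928, was that of NDLN Tconv replicate 2, which also had the most Trbj reads. In the heart, Trbj evenness differed by -0.0571 between Tregs and Tconvs (exact permutation p = 0.2) and in spleen and NDLN by -0.00552 (exact permutation p = 0.894). The largest Trbj share averaged 31.8 ± 2.22% in heart Tregs and 28.3 ± 8.45% in lymphoid Tregs (difference 3.46 points, exact permutation p = 0.505). It averaged 26.9 ± 3.69% in heart Tconvs and 30.4 ± 8.71% in lymphoid Tconvs (difference -3.51 points, exact permutation p = 0.56). Between Tregs and Tconvs it differed by 4.89 points in the heart (exact permutation p = 0.2) and by -1.56 points in spleen and NDLN (exact permutation p = 0.758), and over the 16 tests all of these had an adjusted p of 0.8 or 0.894.

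Reads from J segments without the J coding pattern were common. Trbj2-6, the annotated pseudogene printed above, took 8.32% of all Trbj reads. It had 3.42, 1.42 and 11.1% in heart Tregs, against 0.703 to 14.6% (median 10.3%) in lymphoid Tregs. In heart Tconvs it had 12.6, 29.9 and 15.3%, against 0.581 to 21.3% (median 5.85%) in lymphoid Tconvs, and it led heart Tconv replicate 2, the library with the fewest Trbj reads (164). Trbj1-7 had 12.5, 14.9 and 0% in heart Tregs, against 0 to 15.9% in lymphoid Tregs, and 10.5, 7.32 and 10.3% in heart Tconvs, against 0 to 7.15% in lymphoid Tconvs. Trbj1-7 was 1 of 4 Trbj segments, of 14, whose heart Tconv shares did not overlap with lymphoid Tconvs, against 0 of 26 Trbv segments. In CPM, 15.8% of all genes tested did not overlap between these groups, so such a count is no result about the segments. The other 3, Trbj1-1, Trbj1-2 and Trbj2-4, were lower in all heart Tconv libraries, Trbj1-1 with 1.70, 1.22 and 2.59%, against 4.98 to 14.1%. Between heart Tregs and heart Tconvs, Trbj2-1 was higher and Trbj2-6 lower in all 3 Treg libraries, 2 of 14 segments. Of all genes tested, 12.1% did not overlap in CPM between these groups, so this count is no result about the segments either. No Trbj share separated heart from lymphoid Tregs, and edgeR called the level of none of these segments. Counts alone do not show which of these reads came from joined receptors.

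Trbj reads were few where mitochondrial ribosomal RNA was low. For every 100 Trbv reads there were 1.37 to 3.30 Trbj reads in the 5 libraries below 0.5% mitochondrial ribosomal RNA and 3.03 to 7.03 in the other 16. Of the heart libraries, 3 are among those 5 (1 of Tregs and 2 of Tconvs), so the part of this difference in the heart Trbj shares was not tested. Trbv evenness overlapped between the sets, at 0.799 to 0.841 in the 5 and 0.693 to 0.848 in the 16.

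The J clusters were set beside the constant genes because Trbj1 segments lie upstream of Trbc1 and Trbj2 segments between Trbc1 and Trbc2, so that a joined Trbj2 exon is spliced to Trbc2. Trbj1 segments took 48.9, 31.96 and 11.7% of Trbj reads in heart Tregs, against 19.9 to 71.2% (median 32.5%) in lymphoid Tregs. In heart Tconvs they took 55.1, 25.6 and 29.02%, against 23.1 to 53.7% (median 26.5%) in lymphoid Tconvs. Heart Treg replicate 3, at 11.7%, was the lowest of all libraries. Trbc1 took 30.1, 28.1 and 28.6% of Trbc1 and Trbc2 reads in heart Tregs, against 29.4 to 45.3% (median 37.9%) in lymphoid Tregs. In heart Tconvs it took 46.6, 39.6 and 39.2%, against 28.1 to 40.9% (median 38.7%) in lymphoid Tconvs. Heart Treg libraries thus lay at the low end of the Trbc1 share and were closely spaced, with replicate 1 above the lowest lymphoid Treg library, a pattern chosen after its values were seen. Over the 21 libraries the Trbj1 share and the Trbc1 share were only weakly correlated (Pearson 0.204, Spearman 0.101).

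Of the genes that form the receptor complex, edgeR called 3 between heart and lymphoid Tconvs. Of the receptor complex list (Trbc1, Trbc2, Trac, Cd3d, Cd3e, Cd3g and Cd247) edgeR called 0 of 7 in heart against lymphoid Tregs (0.967% of all genes), where the smallest adjusted p was that of Trbc1 (log2 fold change -0.91, SE 0.24, adjusted p = 0.0820). Trbc1 was also the 1 of 7 with an unadjusted p under 0.05, where 15.7% of all genes had one. It was the 1 that DESeq2 called (adjusted p = 0.0106), where DESeq2 called 12% of all genes. Limma-voom called 0 of 7 and 4.09% of all genes, so these counts are no result about the list. In heart against lymphoid Tconvs edgeR called 3 of 7, where it called 4.58% of all genes, and DESeq2 and limma-voom called 4 each, where they called 18.4 and 9.46%. Trbc2, the constant gene used by the Trbj2 cluster, fell by 1.06 on the log2 scale (SE 0.22, adjusted p = 0.00909), with 1419, 1354 and 1894 CPM in heart Tconvs, against 2139.7 to 3064 CPM in lymphoid Tconvs. Cd3d, a signalling subunit, was lower (-1.25, SE 0.27, adjusted p = 0.0123) and Cd3e, another subunit, was higher (1.32, SE 0.34, adjusted p = 0.0285). The median log2 fold change of all genes in this contrast was 0.54. Heart Tconv replicates 1 and 2 are among the 5 libraries low in mitochondrial ribosomal RNA, and all lymphoid Tconv libraries are among the other 16. Organ and this library difference therefore cannot be fully told apart here. In heart Tregs against heart Tconvs and in spleen and NDLN Tregs against Tconvs 0 of 7 were called by edgeR, DESeq2 or limma-voom. Of all genes, edgeR called 0.0667 and 1.1% there, DESeq2 6.94 and 13.7% and limma-voom 1.37 and 3.01%. By edgeR, 0 of 7 had an unadjusted p under 0.05, against 7.81 and 14.8% of all genes. Foxp3 was called by edgeR in each (log2 fold changes 10.85 and 12.49, adjusted p = 1.2e-05 and 2.8e-08).

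The D segments were detected in all 21 libraries at low levels. Trbd1 and Trbd2 together summed to 2.87, 3.65 and 5.26 CPM in heart Tregs, against 6.75 to 27.4 CPM in lymphoid Tregs. In heart Tconvs they summed to 4.32, 3.84 and 8.09 CPM, against 9.51 to 16.3 CPM in lymphoid Tconvs. The sums did not overlap in either comparison, a pattern seen after the fact. Of all genes tested, 2.01% were lower in CPM in every heart Treg than in every lymphoid Treg library, and 3.45% in every heart than in every lymphoid Tconv library. By gene, edgeR called neither gene (adjusted p of 0.706 for Trbd1 and 0.617 for Trbd2 in Tregs, 0.541 and 0.478 in Tconvs). Of the recombination genes, Rag2 was at 0 in all 21 libraries. Rag1 was detected in spleen Tconv replicate 1 alone (2.63 CPM) and Ptcra in NDLN Treg replicate 3 alone (0.0713 CPM). Dntt, which adds bases at the junctions, was at 0 in 12 libraries, the 3 heart Treg libraries among them, and reached 18.4 CPM in heart Tconvs and 27.6 CPM in lymphoid Tconvs.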

How the data were processed

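RNA of 21 bulk libraries was analysed, 3 in each of 7 groups. Whole-number read counts per gene were deposited by the authors as a single table, and the submitters' processing notes name CASAVA 1.8.2, HISAT2, HTSeq 0.6.0 and the mm10 build. Neither the strand setting nor the handling of multiply matching reads is stated. All 21 count columns were used and 0 were left out. Segment biotypes, lengths and sequences came from GENCODE M21.

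Segment counts were divided by the Trbv or Trbj total of the library. Shannon evenness and the largest share were compared with two-sided exact permutation tests over libraries, with Benjamini-Hochberg adjustment over 16 tests. Levels were tested with edgeR 4.0.16 (filterByExpr with a minimum count of 10 and a minimum total of 15, TMM scaling, quasi-likelihood test over all 7 groups), with lymphoid groups averaged at equal weight on the log scale and a threshold of 0.05. DESeq2 1.42.0 and limma 3.58.1 (voom) were alternatives, run under R 4.3.3. Python 3.11.15, scipy 1.17.1 and pandas 2.3.3 were used for the rest. The code was tested on simulated data. Other alternatives were evenness measures, subfamily sums, thinning, per-length shares, sets of libraries, a replicate block and leaving out each library. Per-length shares, the set of 5 libraries, limma-voom and the difference of heart effects were chosen after seeing the data.

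The members and gene lists were chosen with earlier results of these data known. Named segments were those that led a library, those averaging at least 5% in a group, called segments, the 2 smallest p-values on either side of each contrast and the fixed lists. Segments with other patterns were chosen after their values were seen, as stated beside them. 1 of the marker genes is not reported here.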

Additional observations from a re-analysis of the deposited data

Results flagged for a closer look

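NDLN Treg replicate 3 stood apart in J segment use. Its Trbj evenness of 0.676 lay far below the other lymphoid Tregs (a gap of 0.541 of the whole range, where 0.493 is the critical value of Dixon's test for 9 libraries) and below the other spleen and NDLN Tregs (0.801, critical value 0.625 for 6). Its largest Trbj share, 46.3% for Trbj2-1, lay far above that of the other spleen and NDLN Tregs (0.675, critical value 0.625). In Trbv evenness the same library was at 0.828, within the range of its group. In all, 12 such tests were made, of several measures in sets of libraries that partly share members, and chance flags about 1 in 20. The flags all concern this library and linked Trbj measures, so they are not independent.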

How the results depend on the processing

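The lower Trbv evenness of heart than lymphoid Tregs kept its sign in all 23 alternatives and lost its unadjusted call in several: over the segments detected in each library (-0.0269, exact permutation p = 0.136), with the Gini-Simpson index (-0.0185, exact permutation p = 0.0727) and with subfamilies summed (-0.0259, exact permutation p = 0.327). In the 5 libraries low in mitochondrial ribosomal RNA it was -0.0153, with 1 heart against 2 lymphoid Treg libraries, which cannot pass the threshold and says nothing about stability. Leaving out 1 library at a time gave -0.0778 to -0.0183. None of the differences that changed sign had passed the test. Trbv evenness of heart against lymphoid Tconvs was 0.000977 with the Gini-Simpson index, 0.00939 with subfamilies summed, 0.00123 per length and -0.00679 to 0.00269 leaving out libraries. For heart Tregs against heart Tconvs it was 0.00494 in the 5 libraries, a value from 1 against 2 libraries with no spread in the first. For spleen and NDLN Tregs against Tconvs it was -0.0150 over detected segments, -0.00306 with the Gini-Simpson index and -0.00138 to 0.0110 leaving out libraries. With subfamilies summed, the largest Trbv share differed by -2.53 points for heart against lymphoid Tregs, -0.818 for heart Tregs against heart Tconvs and -0.0531 for spleen and NDLN, and leaving out libraries gave -1.55 to 1.41 for the first of these. Trbj evenness of heart against lymphoid Tregs was -0.0685 to -0.0307 leaving out libraries, past the threshold without NDLN Treg replicate 3 (-0.0606). For heart against lymphoid Tconvs it was -0.00526 with segments under 5 reads set to 0 and -0.00614 to 0.0396 leaving out libraries. For spleen and NDLN Tregs against Tconvs it was 0.00214 with the Gini-Simpson index and -0.0232 to 0.0226 leaving out libraries, and the largest Trbj share was 1.51 as the sum of the 3 largest and -5.04 to 1.15 leaving out libraries. The cause of these changes was not tested.

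DESeq2 called 2 segments in heart against lymphoid Tconvs and 1 in spleen and NDLN Tregs against Tconvs, where edgeR called 0. Leaving out libraries gave 0 to 1 in each: without NDLN Tconv replicate 3, the only NDLN Tconv library with Trbv15 reads, edgeR called Trbv15 in both. Whether equal replicate numbers pair libraries remained unclear. Over 63 pairs of equal number the correlation of deviations was -0.0867 to 0.256 (median 0.00167). Of the 21 libraries, 16 correlated best with their own number. With the number as a replicate block, the Trbv evenness difference of heart against lymphoid Tregs was -0.0529 (exact permutation p = 0.0313), 0 segments were called and no call changed. Trbj shares rest on as few as 164 reads in a library and Trbv shares on at least 8552.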
